A study of Mus musculus with 11 samples.

Results

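The sites described here are the places in the mouse genome where Flag-tagged Zmiz1 was called bound and activated Notch1 was not. They are the peaks of the Flag-Zmiz1 list that share no base with any peak of the activated Notch1 (ICN1) list from the same cells. They numbered 540 of the 581 Flag-Zmiz1 peaks, and the other 41 overlapped an ICN1 peak. That ICN1 list was short, at 82 peaks. The sites were chosen by the deposited Flag-Zmiz1 and ICN1 peak calls, that is by the p the peak caller gave each region, so the strength of the sites and their lack of ICN1 are given as descriptions, with no test.

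The cells were line 8946, which comes from a mouse T-cell leukaemia, and the assay was chromatin immunoprecipitation followed by sequencing. By retroviral transduction the cells carried a tagged Zmiz1 marked by NGFR and an activated Notch1 marked by GFP, and cells positive for both markers were sorted. The Flag line carried Flag-Zmiz1 with the Notch1 construct named L1601PDP, and was precipitated with antibodies to Flag, ICN1, Rbpj, H3K4me1, H3K4me3, H3K27me3 and H3K27ac. A second line carried HA-Zmiz1 with the Notch1 construct named DEGFDLNRDP, and was precipitated with antibodies to HA and ICN1. Chromatin for Zmiz1, ICN1 and Rbpj was fixed with DSG and formaldehyde, and chromatin for histone marks with formaldehyde alone. All binding was therefore measured in cells with added Zmiz1 and added Notch1. There was 1 library per target and line, so no value has a replicate to be compared with. After duplicate removal there were 15429394 tags for Flag-Zmiz1, 15377221 for ICN1 of the Flag line, 19048270 for Rbpj and 15322650 for HA-Zmiz1. Flag-Zmiz1, ICN1 and Rbpj were all called against the same Flag-line input.

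Zmiz1 is a coactivator related to the PIAS proteins and works at chromatin as a partner of DNA-binding factors. ICN1 is the cleaved part of Notch1 that enters the nucleus and binds DNA through Rbpj, and Rbpj also sits on DNA without Notch. Among histone marks, H3K4me3 is found at active promoters, H3K4me1 at enhancers, H3K27ac at both when active, and H3K27me3 at genes silenced by Polycomb.

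The 2 H3K27 libraries went against their labels, and are called by their labels below. Segments of the library labelled H3K27ac lay over an end of 25 of 30 developmental regulator genes and of 0 of 20 housekeeping genes. For the library labelled H3K27me3 the counts were 1 of 30 developmental and 19 of 20 housekeeping genes. H3K4me3 segments lay over an end of 23 of 25 T-cell receptor and surface genes, against 2 of 12 B-cell genes and 1 of 12 myeloid genes.

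Few promoter windows held a site, and the share given here is of windows, not of sites. Of 32851 RefSeq promoter windows, each running from 250 bases before to 50 bases after a transcription start, 7 windows of 6 genes overlapped a site, or 0.0213%. These are shown because a promoter window gives the DNA letters under a site, and because 2 of them hold both parts of one known element. The element is RE1, the sequence bound by REST, a repressor of neuronal genes in cells that are not neurons. Its left part was searched as CAGCACC and its right part as GGACAG, on both strands, with the 2 parts in this order on one strand and 0 to 20 bases apart. The sequences are from RefSeq, build GRCm38.p6, printed 5′ to 3′ on the strand of the gene, and cover the bases of the window that lie under the site, or for Unc13a the 30 around the pair. Capitals mark the searched parts, which on the printed strand read CTGTCC for the right part and GGTGCTG for the left part where the element runs on the other strand.
Gm32659, minus strand, chr2:136714289-136714378: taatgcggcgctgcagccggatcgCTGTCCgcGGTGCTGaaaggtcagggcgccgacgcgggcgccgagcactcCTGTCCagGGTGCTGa
Unc13a, minus strand, chr8:71671724-71671753: ggcgCTGTCCgcgcccccGGTGCTGaagcg
Cyb5r4, plus strand, chr9:87021779-87021895: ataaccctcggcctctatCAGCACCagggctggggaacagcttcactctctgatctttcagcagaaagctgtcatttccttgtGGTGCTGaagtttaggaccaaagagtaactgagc

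The Gm32659 sequence holds 2 complete pairs, each with the parts 2 bases apart, at 13 and 23 bp from the summit of the site. Gm32659 is a long noncoding RNA, and its start lies inside the span of Snap25, which encodes a SNARE protein of synaptic vesicle fusion. The Unc13a sequence holds 1 pair with the parts 8 bases apart, 11 bp from the summit. Unc13a encodes a protein that primes synaptic vesicles for release. The Cyb5r4 sequence has the left part on each strand and no right part in order.

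Both parts in order, 0 to 20 bases apart, were found in 2 of the 7 windows with a site and in 43 of all 32851 windows, or 0.131%. At a spacing of 2 bases they were found in 1 of the 7 and in 12 of all windows, or 0.0365%. The left part, with or without the right, was in 3 of the 7 and in 7.14% of all windows, and the right part in 2 of the 7 and in 22.2%. The core GTGGGAA, which Rbpj recognises, was in 2 of the 7 windows and in 6.38% of all windows. In both, the windows of Gm32659 and Cpne4, it lay outside the bases under the site. Of the 43 windows with both parts, 15 (34.9%) overlapped an Rbpj peak, against 7246 (22.1%) of all windows. The 43 windows belong to 40 genes, and a difference between these shares was not tested. A match describes the letters of the window and is not a bound site, and the RE1 search was chosen after the genes near the sites had been seen. The other windows with a site were those of Neurod4, a neurogenic transcription factor with 2 overlapping windows, Tex33 and Cpne4.

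The sites were narrow and most rested on few tags. Fold enrichment over local input, as the authors computed it, ran from 2.71 to 46.5 with a median of 7.39, and the quartiles were 6.07 and 8.77. The −log10 p of the peak caller ran from 5.11 to 120 with a median of 11.3, with 40 sites tied at exactly that median. Summit pileups ran from 6 to 88 tags with a median of 11, and widths from 58 to 285 bp with a median of 77 bp. Local input was recovered from the deposited values and expressed as a multiple of the library mean, and its median at the sites was 1.12. Its lower quartile equalled its lowest value, 1.01, so 1.01 is read as a floor of the recovered value. Input at such sites may have been lower.

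The 41 Flag-Zmiz1 peaks that overlapped ICN1 looked different. Their fold enrichment had a median of 2.91 and ran from 1.97 to 4.01, while their pileups had a median of 92 tags. Rbpj was called at 34 of the 41 (82.9%), H3K4me3 segments covered 25, and segments of the library labelled H3K27ac covered all 41. Of the 41, 36 were more than 100 kb from any coding gene. Their local input had a median of 65.5 times the library mean and ran from 30.1 to 95.7. The part of this input in those overlaps was not tested. All 41 lay at 10 or more times the mean input, against 1 of the 540 sites without ICN1.

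That 1 site is the one closest to an ICN1 peak. It lies nearest to Gm2244 at chr14:19418075-19418270, 145 bp from an ICN1 peak, with a fold enrichment of 2.71 and local input of 66.4 times the mean. The next closest lay inside Ctnnd2, 49.1 kb from ICN1 at a fold of 6.16. The site with Nck2 as its nearest coding gene was 92.1 kb from ICN1 at a fold of 7.04, and the one nearest to Axin2 was 95.5 kb from ICN1 at a fold of 19.6. Just on the other side of the rule, Flag-Zmiz1 peaks nearest to Rab10, Gm2244 and Esp38 shared between 53 and 56 bp with ICN1. Of the 481 sites on a chromosome with an ICN1 peak, 457 were more than 1 Mb from one, and 59 sites were on chromosomes with none. The ICN1 list of the Flag line held 82 peaks over the whole genome, against 414 for ICN1 of the HA line. Both these distances and the number of sites without ICN1 depend on the length of that list.

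**Figure D1:**
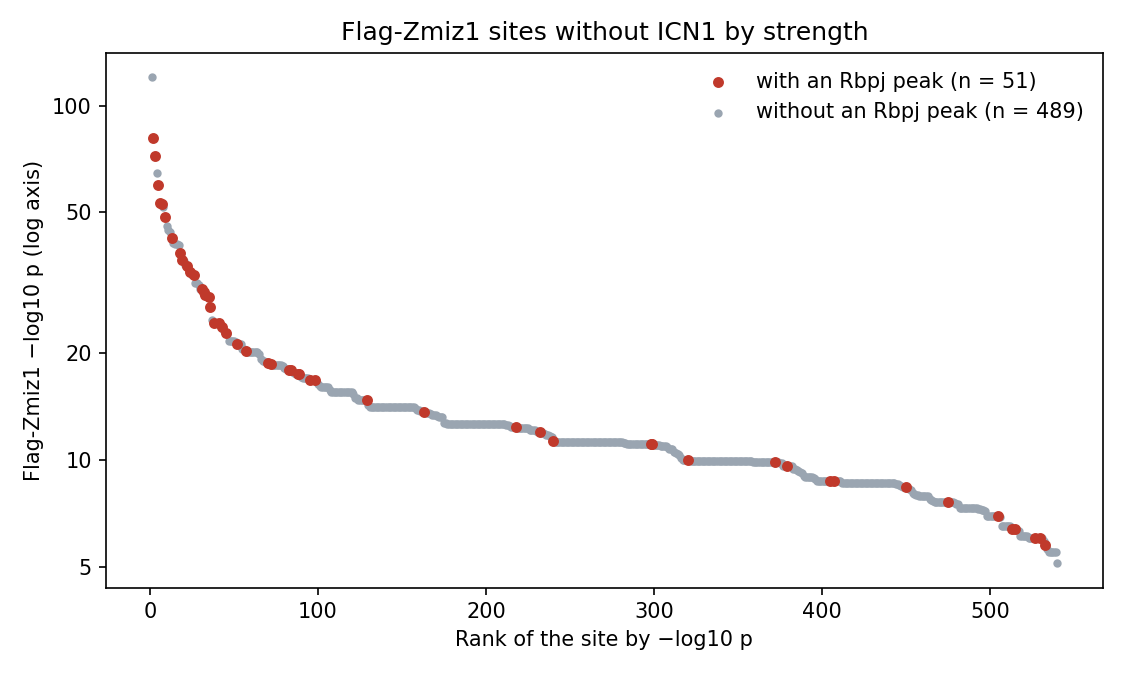
Flag-Zmiz1 −log10 p (log axis) of each of the 540 sites against its rank, with the 51 sites that overlap an Rbpj peak in red and the 489 others in grey. The red points crowd at the left end: 32 of the 135 strongest sites overlap Rbpj.

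The 3 strongest sites lay at or near genes best known from the nervous system. The strongest of all was inside Unc5a, which encodes a netrin receptor that guides axons, at chr13:54970981-54971110. It had a pileup of 68 tags, a fold of 46.5 and a −log10 p of 120, with recovered local input at its floor of 1.01. There was no Rbpj, HA-Zmiz1 or ICN1 peak and no histone segment. The second lay 54 bp from an end of Scrt1, a zinc-finger repressor expressed in neurons, at chr15:76522183-76522351. Throughout, a gene end is either boundary of the gene span, so it can be the side of the transcription start. Its Flag-Zmiz1 fold was 30.8 with 56 tags, and its Rbpj fold was 10.5. The third was inside Npas4, an activity-dependent neuronal transcription factor, with a Flag-Zmiz1 fold of 21.2, 65 tags and an Rbpj fold of 8.02.

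The other 7 of the 10 strongest were more mixed. Epha8, an ephrin receptor, lay 4.62 kb from a site with a Flag-Zmiz1 fold of 22.2 and an Rbpj fold of 5.82. Kcnk9, a potassium leak channel, lay 20017 bp from a site with a Flag-Zmiz1 fold of 11.8 and an Rbpj fold of 4.81, where local input was 8.86 times the mean. Garnl3 held a site with a Flag-Zmiz1 fold of 24.4 and an Rbpj fold of 5.38, and Phf21b one with 15.8 and 8.46. The remaining 3 had no Rbpj peak. They lay 73.3 kb from Taf1b, a subunit of the RNA polymerase I machinery, with a fold of 28.3, at 1.52 kb from Plppr2 with a fold of 19.8, and inside Trappc9, a vesicle trafficking subunit, with a fold of 13.4.

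Rbpj was called at 51 of the 540 sites, or 9.44% (exact 95% interval 7.11 to 12.2%), and the 489 others had no Rbpj peak. At those 51 sites the Flag-Zmiz1 and Rbpj summits lay 1 to 99 bp apart, with a median of 21 bp. The Rbpj fold there ran from 3.88 to 11.5 with a median of 6.20, and the median over all 20993 Rbpj peaks was 6.47. Seen from the Rbpj list, the 51 were 0.243% of its peaks. Widening the search to 1 kb gave 64 sites near an Rbpj peak, and widening it to 5 kb gave 99.

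The Rbpj peaks went with the strong Flag-Zmiz1 sites. Among the 135 strongest sites, ranked by −log10 p, 32 overlapped Rbpj (23.7%), and the next 3 groups of that size had 4, 7 and 8. Edges of these groups fell within ties, which were ordered by their place in the peak list. A −log10 p of 14.1 was shared by 27 sites and one of 11.3 by 40. Of the 54 strongest sites 22 overlapped Rbpj, or 40.7% (27.6 to 55.0%). The strength of a site chose it, so no test is given. The Flag-Zmiz1 fold had a median of 9.74 at the sites with Rbpj and 7.23 at those without, and the pileup a median of 18 tags and 11 tags. Local input moved in the same direction, with a median of 2.66 times the mean at sites with Rbpj and 1.07 at sites without. At the sites without Rbpj its lower quartile was again the floor of 1.01. The part of local input in the result was not tested, and both factors were called against the same input.

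The 10 strongest sites with Rbpj take in Scrt1, Npas4, Garnl3, Phf21b, Epha8 and Kcnk9, described above, and 4 more. The site 156 bp inside an end of Cacng2, which encodes the AMPA receptor partner stargazin, had a Flag-Zmiz1 fold of 14.4 and an Rbpj fold of 4.82. The site inside Celsr3, a cadherin of axon tract formation, had a Flag-Zmiz1 fold of 13.5 and an Rbpj fold of 7.76. The site inside Erich1 had 14.1 and 8.17, and the site 113 bp from Cyb5r4, a reductase, had 17.5 and 10.8.

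**Figure D2:**
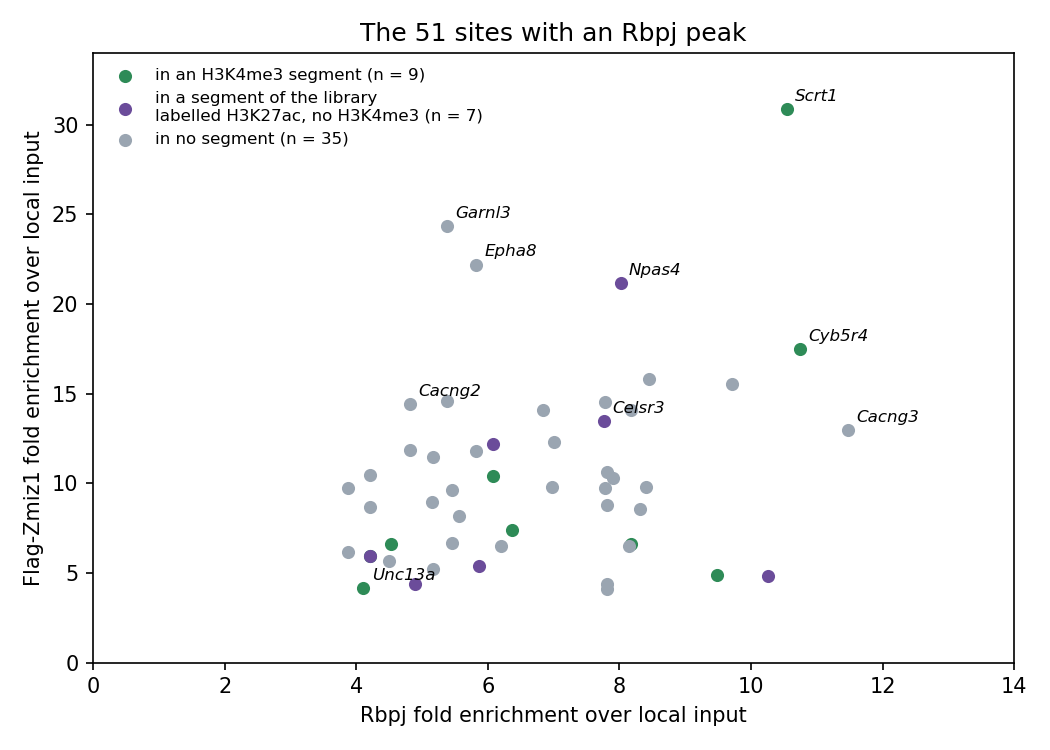
Flag-Zmiz1 fold enrichment against Rbpj fold enrichment, both over local input, at the 51 sites with both peaks, coloured by histone segment. Scrt1 and Cyb5r4 are high on both axes, Garnl3 and Epha8 are high for Flag-Zmiz1 at Rbpj folds of 5.38 and 5.82, and 35 of the 51 points lie in no segment.

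HA-Zmiz1, the second tagged Zmiz1, was called at 2 of the 540 sites, or 0.370% (0.0449 to 1.33%), although its list held 4984 peaks. Both sites also had Rbpj. The site inside Erich1, at chr8:14072653-14072821, had a fold of 14.1 for Flag-Zmiz1, 8.17 for Rbpj and 7.23 for HA-Zmiz1. The site 14.5 kb from Fem1a, at chr17:56242154-56242265, had a fold of 9.78 for Flag-Zmiz1, 6.97 for Rbpj and 8.55 for HA-Zmiz1, and lay 723 bp from the hairpin of the microRNA Mir7b. Within 5 kb, 26 sites had an HA-Zmiz1 peak. ICN1 of the HA line was called at 0 of the 540 sites, which allows a share of up to 0.556% taking 3 counts as the limit, or 0.681% as the upper end of the exact 95% interval, and 1 site had such a peak within 5 kb. With 2 sites on one side, none of the 5 shares compared between sites with and without HA-Zmiz1 passed Fisher's exact test (two-sided), and the adjusted p was 1 for each.

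Most of the sites lay in chromatin with no called histone segment. That was the case for 404 of the 540, or 74.8%. The larger part of the genome span also lay outside called segments, by the coverage given below. Lying in no segment is therefore not particular to the sites. H3K4me1 segments covered 83 sites, or 15.4% (12.4 to 18.7%), and H3K4me3 segments 29 sites, or 5.37% (3.63 to 7.62%). The library labelled H3K27me3 covered 53 sites, or 9.81% (7.44 to 12.6%), and the library labelled H3K27ac 50 sites, or 9.26% (6.95 to 12.0%). The segments themselves covered 7.22%, 2.44%, 4.81% and 5.64% of the genome span in the same order, so each share of sites was above the share of genome covered. In combination, 45 sites lay in a segment of the library labelled H3K27ac without H3K4me3, 30 in H3K4me1 together with the library labelled H3K27me3, 29 in H3K4me1 alone, and 3 in the library labelled H3K27me3 alone.

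The 5 strongest sites in H3K4me3 segments had Scrt1, Cyb5r4, Xkr7, Lipo4 and Slc10a1 as their nearest coding genes. The site lay inside Xkr7, and was 25.6 kb from Slc10a1 and 272 kb from Lipo4. The H3K4me3 segment near Scrt1 spanned 2.8 kb at a fold over control of 5.60, and the one near Cyb5r4 spanned 2.4 kb at a fold of 11.9. Those at the other 3 were weaker, at folds of 4.28 at the Xkr7 site, 2.90 at the Lipo4 site and 2.59 at the Slc10a1 site, and the median over all H3K4me3 segments was 4.60. In the library labelled H3K27ac the 5 strongest sites lay near or inside Scrt1, Npas4, Plppr2, Celsr3 and Rtbdn, in segments of 3.6 to 19.0 kb at folds of 1.88 to 4.66. In the library labelled H3K27me3 one of the 5 lay inside St8sia1, and the others were far from their nearest coding genes, at 25.6 kb from Slc10a1, 80.6 kb from Pbx3, 272 kb from Lipo4 and 408 kb from Cd83. Their segments had folds of 2.11 to 6.13, and none of these 5 sites had Rbpj.

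The sites with Rbpj and those without were set apart in 4 of 6 measures, 1 of which rests on 2 sites, by Fisher's exact test (two-sided, Benjamini-Hochberg adjusted over the 6), and every p of the comparison is from that test. A coding gene end lay within 1 kb of 16 of the 51 sites with Rbpj (31.4%) and of 17 of the 489 without (3.48%), exact-test adjusted p = 8.22e-09. H3K4me3 covered 9 sites with Rbpj (17.6%) and 20 without (4.09%), exact-test adjusted p = 0.00205. The library labelled H3K27ac covered 11 with Rbpj (21.6%) and 39 without (7.98%), exact-test adjusted p = 0.00788, and HA-Zmiz1 was called at 2 with Rbpj and 0 without, adjusted p = 0.0131, a value that rests on those 2 sites. For H3K4me1 the counts were 5 with Rbpj (9.80%) and 78 without, exact-test adjusted p = 0.372. For the library labelled H3K27me3 they were 3 (5.88%) and 50, exact-test adjusted p = 0.459. The test takes sites as independent, which neighbouring sites are not, and it compares sites of single libraries, not conditions.

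**Figure D3:**
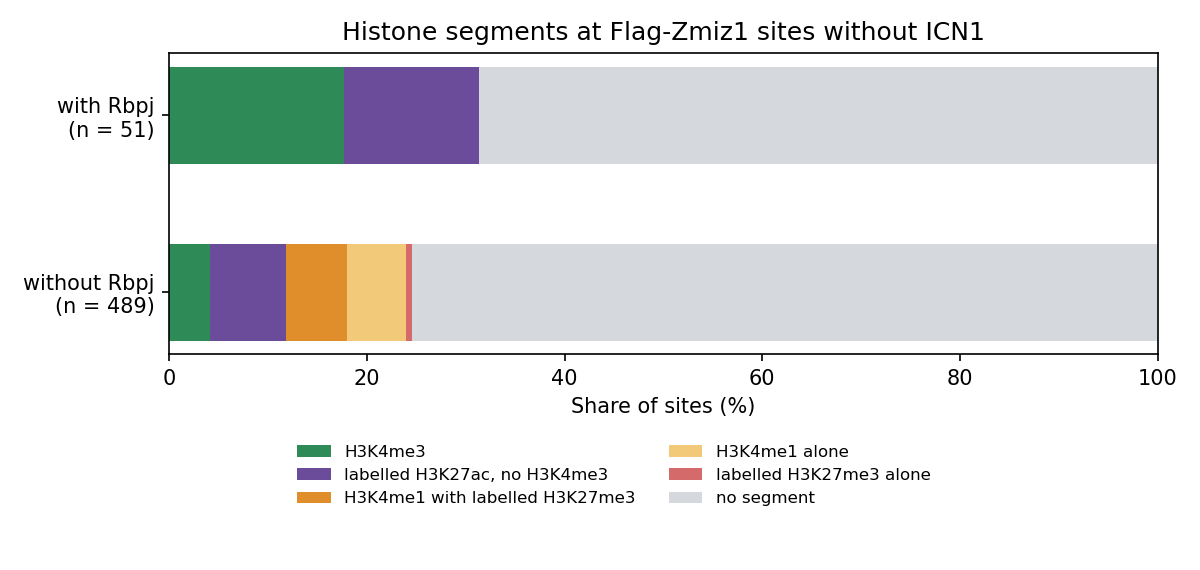
Share of sites in each combination of histone segments, for the 51 sites with Rbpj (upper bar) and the 489 without (lower bar). No segment covers 35 of the 51 sites with Rbpj, and H3K4me3 covers 9 of them.

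The sites with Rbpj can also be set beside the Rbpj list as a whole. A coding gene end lay within 1 kb of 31.4% of the 51 sites with Rbpj, against 45.0% of all Rbpj peaks. H3K4me3 covered 17.6% of the 51 sites, against 87.3% of all Rbpj peaks. The library labelled H3K27me3 covered 5.88% of the 51 sites and 86.2% of all Rbpj peaks, and the library labelled H3K27ac covered 21.6% and 5.31%. These lists share peaks, so no test is given.

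Set against HA-Zmiz1 peaks without ICN1 of their own line, which numbered 4689, the Flag-Zmiz1 sites had other values in all 6 shares compared. Each list is 1 library, and the test counts its peaks as independent, so a p here compares these 2 peak lists and says nothing of a difference between the tagged proteins or the lines. Rbpj was called at 9.44% of the Flag-Zmiz1 sites and 69.6% of the HA-Zmiz1 sites, a difference of -60.2 percentage points with exact-test adjusted p = 1.9e-169. H3K4me1 covered 15.4% of the Flag-Zmiz1 sites and 82.6% of the HA-Zmiz1 sites (exact-test adjusted p = 3.38e-220). H3K4me3 covered 5.37% and 93.2%, and the library labelled H3K27me3 covered 9.81% and 93.7%, each with exact-test adjusted p under 1e-300. A gene end lay within 1 kb of 6.11% of the Flag-Zmiz1 sites and 19.6% of the HA-Zmiz1 sites (exact-test adjusted p = 1.93e-17).

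The library labelled H3K27ac ran the other way. It covered 9.26% of the Flag-Zmiz1 sites and 1.54% of the HA-Zmiz1 sites, a difference of 7.72 points with exact-test adjusted p = 3.37e-19. All 6 tests were Fisher's exact (two-sided, Benjamini-Hochberg adjusted over the 6). The 2 lists differ in tag, antibody, Notch1 construct and input, and the HA-line reads were pooled per the file headers, so what separates them cannot be told apart. All histone libraries and the Rbpj library came from the Flag line.

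**Figure D4:**
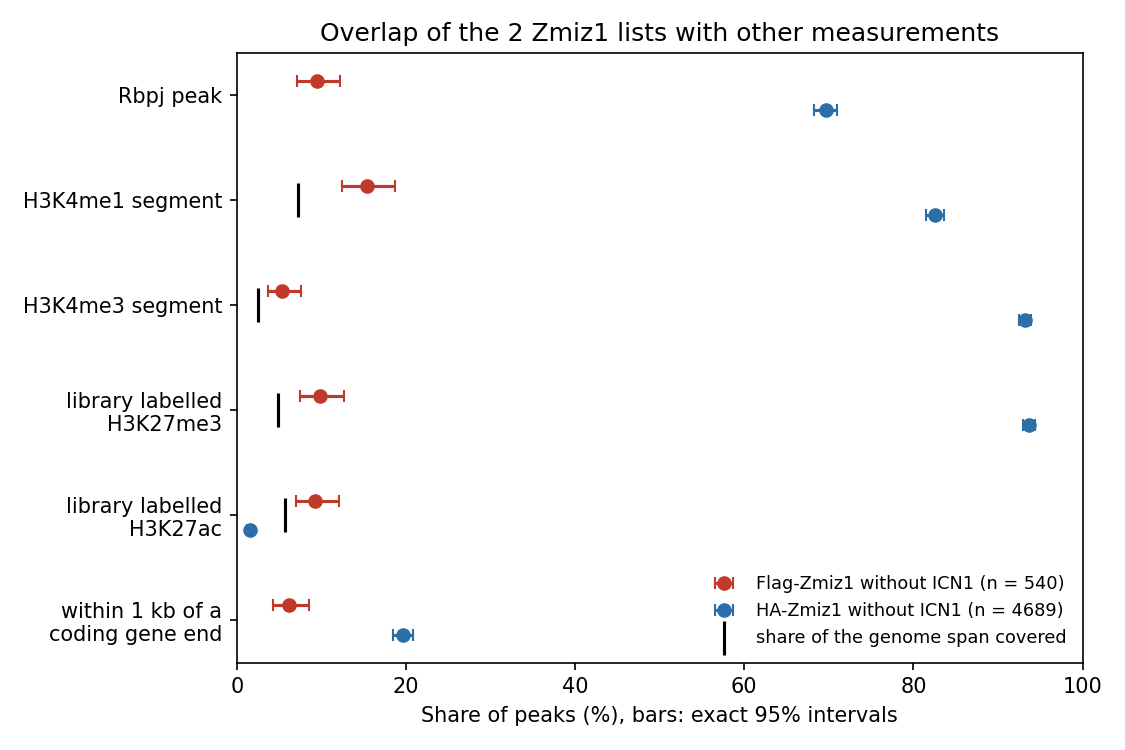
Share of peaks, in percent with exact 95% intervals, for Flag-Zmiz1 without ICN1 (red, upper of each pair) and HA-Zmiz1 without ICN1 (blue, lower of each pair), with black ticks for the share of the genome span each histone library covers. The red points lie between 5.37% and 15.4%, and the blue points lie to the right of them in every row but the library labelled H3K27ac.

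The Flag-Zmiz1 sites were spread over genes and gaps alike. Of the 540 sites, 226 lay inside a coding gene span (41.9%, interval 37.7 to 46.1%), and coding genes cover 37.9% of the genome span. Of the HA-Zmiz1 sites without ICN1, 53.9% lay inside one. There were 100 Flag-Zmiz1 sites more than 100 kb from any coding gene (18.5%), against 7.63% of the HA-Zmiz1 sites and 3.56% of the Rbpj peaks. The sites had 516 different nearest coding genes. Camta1, a calmodulin-binding transcription factor gene, and Sugct each held 3 sites, with folds of 6.16, 6.68 and 9.44 in Camta1 and 7.28, 7.64 and 10.7 in Sugct.

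Of 21900 coding genes, 878 had a site within 50 kb of their span, which is 4.01%, and 12.0% had one within 200 kb. Gene lists named for their function are read against that share. Notch target genes had 3 of 25. A site 41.3 kb from Myc, an oncogene on that list, had a fold of 6.40 and lay in the library labelled H3K27ac. Shq1, a factor for assembling small nucleolar particles, held a site with a fold of 5.73, and Cd44, an adhesion receptor, had sites at 9.12 kb and 35.6 kb with folds of 8.32 and 6.60. None of these 4 sites had Rbpj. The closer Cd44 site was above the median fold of all 540 sites, and the other 3 were below it.

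T-cell receptor and surface genes had 3 of 25 within 50 kb. Cd5 and Cd6 shared 1 site with a fold of 7.68 in an H3K4me1 segment, and Ptprc, which encodes the CD45 phosphatase, held a site with a fold of 10.7 in the library labelled H3K27me3. No site lay that close to any of the 26 T-lineage regulators, and the counts for markers of other blood cells were 0 of 12 for the B lineage and 0 of 12 for the myeloid lineage. Beside the 4.01% of all coding genes, a count of 0 is not unusual in lists of this size. The list of Notch complex, Zmiz and Pias genes had 3 of 16. A site 29964 bp from Pias3, a SUMO ligase of the PIAS family, had a fold of 11.4. Maml2, a Mastermind coactivator of Notch, held a site with a fold of 7.42, and a site 3.38 kb from Crebbp, an acetyltransferase, had a fold of 7.98. None of the 3 had Rbpj or lay in a histone segment.

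Ribosomal protein genes had 1 of 20 within 50 kb (Rps18, a site at 17.2 kb with a fold of 5.19), and housekeeping genes 1 of 20 (Psmb2, 22.1 kb from a site with a Flag-Zmiz1 fold of 4.40 and an Rbpj fold of 7.82). Developmental regulators had 3 of 30. Sites lay 19.2 kb from Sox9 and 13.6 kb from Nkx2-5 with folds of 6.07 and 6.74, and 48.4 kb from Lhx2 with a Flag-Zmiz1 fold of 9.61 and an Rbpj fold of 5.45.

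Long neural genes had 6 of 25 within 50 kb, the highest count of the 10 lists at that window. Among them were Csmd3, Dlg2, Ptprd, Macrod2 and Kcnip4, the last with 2 sites, at folds of 4.87 to 8.28. None of these 6 sites had Rbpj or a histone segment. The 5 genes span 1136 to 2271 kb, against a median of 17.1 kb over all coding genes, and a long gene offers more room for a site. The part of gene length in this count was not tested.

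Sites also lay at neuronal channel and vesicle genes. The gene families that follow were chosen after the nearest genes had been seen, so their counts are descriptions with no test. Of 211 genes for ion channels and transmitter receptors, 7 had a site within 5 kb of a gene end (3.32%), against 118 of all 21900 coding genes (0.539%). Taking sites with Rbpj alone, 4 of the 211 had one (1.90%), against 36 of all coding genes (0.164%). The HA-Zmiz1 sites without ICN1 gave 10 of 211 (4.74%) against 8.03% of all coding genes, and Rbpj peaks gave 46 of 211 (21.8%) against 44.3%. Counting the whole span instead of its ends, the Flag-Zmiz1 sites gave 13 of 211 (6.16%) against 1.34%, where these genes are longer, at a median of 51.4 kb against 17.1 kb.

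The 4 with Rbpj were Cacng2, described above, Cacng3, Grik5 and Gabrd. The site 698 bp from Cacng3, an AMPA receptor partner like stargazin, had a Flag-Zmiz1 fold of 13.0 and the highest Rbpj fold of the 51, at 11.5. The site 935 bp from Grik5, a kainate receptor subunit, had folds of 4.40 for Flag-Zmiz1 and 4.89 for Rbpj, and the site inside Gabrd, a GABA receptor subunit, had 5.95 and 4.20. Glra1, a glycine receptor subunit, held a stronger site without Rbpj 220 bp from an end of the gene, with a Flag-Zmiz1 fold of 18.9.

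Of 48 genes of synaptic release and granins, 4 had a site within 5 kb of their span (8.33%), against 1.34% of all coding genes, and these genes have a median span of 59.4 kb. Within 5 kb of a gene end the count was 3 of 48 (6.25%), against 0.539%. The HA-Zmiz1 sites without ICN1 gave 11 of 48 by span (22.9%), against 11.8% of all coding genes. Chgb, a granin of secretory granules, held a site with a Flag-Zmiz1 fold of 6.60 and an Rbpj fold of 8.17, and Unc13a one with 4.17 and 4.11, both in H3K4me3 segments. Snap25 held a site with a fold of 8.66, and Syt7, a calcium sensor of vesicle fusion, one with a fold of 10.1, and neither had Rbpj or a segment. The Snap25 site, at chr2:136714264-136714378, is the one whose letters are printed under Gm32659, and the Unc13a site, at chr8:71671716-71671773, is the one printed under its own name. Of 16 genes long known as REST targets, 2 had a site within 5 kb of their span (12.5%, against 1.34% of all coding genes) and 1 within 5 kb of a gene end (6.25%, against 0.539%). They were Snap25, described above, and L1cam, a neural adhesion molecule that held a site with a Flag-Zmiz1 fold of 14.6 and an Rbpj fold of 5.38.

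Chromosome 15 held more of the sites for its length than any other chromosome. It had 43, or 0.414 per Mb, and the other autosomes ran from 0.138 to 0.275 per Mb with a median of 0.202. Local input at Rbpj peaks on chromosome 15 had a median of 2.64 times the library mean, against 1.71 to 1.97 on the other autosomes. Its part in the count was not tested. HA-Zmiz1 sites without ICN1 came to 2.66 per Mb on chromosome 15, and the other autosomes ran from 1.24 to 3.37 with a median of 1.84. Rbpj peaks came to 11.8 per Mb there, below the 14.8 of the highest other autosome and above the median of 7.93. Chromosome 15 was therefore above the median of the other autosomes in these lists too. Scrt1, Phf21b, Kcnk9, Trappc9, Cacng2 and Myc are all on chromosome 15. The X chromosome had 3 sites, or 0.0176 per Mb. Local input at its Rbpj peaks had a median of 1.01, the lowest value of the measure. The other lists were low there as well, at 0.199 per Mb for HA-Zmiz1 without ICN1 and 2.02 per Mb for Rbpj.

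**Figure D5:**
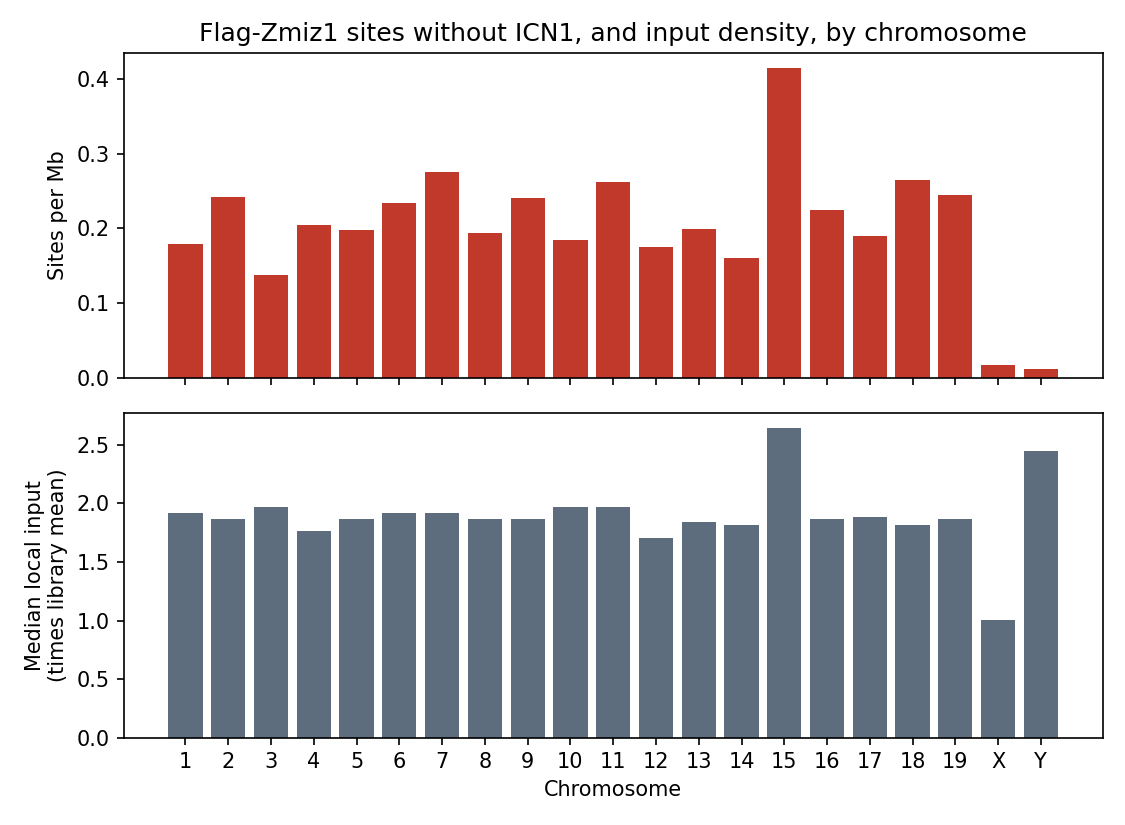
Flag-Zmiz1 sites without ICN1 per Mb (upper panel) and the median local input at Rbpj peaks as a multiple of the library mean (lower panel), by chromosome. Chromosome 15 is the highest for sites, at 0.414 per Mb, and stands above every other autosome in input, at 2.64.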

How the data were processed

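The submitters' processing notes name the mm10 build, Bowtie 0.12.7, MACS2 2.0.10, SICER 1.1 and HOMER 4.2. MACS 2.0.10.20120913 called the peaks, each library against its own line's input, at a p limit of 1e-05, keeping 1 tag per position, per the file headers. Each deposited peak carries a pileup signal in tags, a fold enrichment (a ratio over local background) and a −log10 p. Each histone segment deposited by the authors carries read counts of precipitate and control, a fold over control, a false discovery rate and a p-value.

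Overlap meant at least 1 shared base, and a gene end was either boundary of the gene span. Local input was recovered as (pileup + 1) / fold − 1, divided by the library's mean background. Genes came from RefSeq GRCm38.p6, the mm10 assembly, with 21900 coding entries, and 211 of 212 entries of the 10 gene lists matched. Shares have exact Clopper-Pearson 95% intervals, which cover counting error only. Fisher's exact test (two-sided) compared shares, Benjamini-Hochberg adjusted within families of 6, 6 and 5 shares at 0.05, in Python 3.11.15 with scipy 1.17.1. The overlap code was tested on simulated intervals.

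The sites and the gene lists were chosen with earlier results of these data known. Genes were named by a rule: those nearest the strongest sites of all, with Rbpj, with HA-Zmiz1, in H3K4me3 and in each H3K27 library, those in the lists with a site within 50 kb, genes holding 3 or more sites, and sites nearest the edge of the selection. The channel, synaptic and REST families, Glra1 and the promoter genes were named after their values were seen. The overlap limit, the p limit, high-input peaks, segment strength and gene windows were varied. Promoter windows came from RefSeq. Individual reads, and sequence outside those windows, were not used here. One gene of the lists is not reported here.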

Additional observations from a re-analysis of the deposited data

How the results depend on the processing

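Of 142 values recomputed under other settings, 122 kept their direction and side of the threshold or, without a test, their size, and 2 reversed. Both reversals were among sites with HA-Zmiz1 set against those without, none of which passed the test: with summits within 250 bp in place of overlap, the difference became 28.1 points for H3K4me3 and 24.2 points for the library labelled H3K27ac, with 1 of 3 sites in place of 0 of 2. The other Fisher results kept their direction and side of the threshold under the settings tried. A p limit of 1e-06 left 531 sites, and leaving out high-input peaks left 539. Keeping the upper 50% of segments by fold lowered the share of sites covered to 8.52% for H3K4me1, 2.59% for H3K4me3, 5.37% for the library labelled H3K27me3 and 6.11% for the library labelled H3K27ac, by construction. A gene end window of 5 kb instead of 1 kb took in 17.8% of sites. Gene windows of 5 kb, which reach 1.34% of coding genes, gave 1 Notch target and 1 T-cell receptor or surface gene. They also gave 2 of 16 Notch complex genes and 6 of 25 long neural genes. For ribosomal protein, housekeeping, developmental, T-lineage, B-cell and myeloid genes the count was 0. Windows of 200 kb, which reach 12.0% of coding genes, gave 6 Notch targets, 4 T-cell receptor or surface genes, 2 T-lineage regulators and 5 of 16 Notch complex genes. The rest were 3 ribosomal protein genes, 2 housekeeping genes, 7 developmental regulators, 6 of 25 long neural genes, 1 B-cell gene and 2 myeloid genes. At 200 kb the highest count was that of the developmental regulators and the highest share that of the Notch complex list, not those of the long neural genes. No paired analysis was possible because each target has 1 library per line and the peak lists carry no replicates. With a median of 11 tags at the summit, weak sites rest on few tags, and a site below the p limit in one list can be missing from an overlap without being unbound.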

Other observations

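Some sites came in tight groups: 7 pairs of neighbours lay under 1 kb apart. A row of such sites lay 467 to 468 kb from Tshz1, a zinc-finger homeobox gene and their nearest coding gene, with folds of 10.8 to 20.9 and no Rbpj peak. Hairpins of the microRNAs Mir6901, Mir7047, Mir3473b and Mir7b lay within 5 kb of a site, and of these 4 the site near Mir7b had Rbpj.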
